A study of Mus musculus with 24 samples.

Results

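The change in gene expression of white fat precursor cells between day 0 (d0) and day 3 (d3) of adipogenesis in culture was measured by RNA sequencing, in cells that had received a non-targeting control siRNA (siCtrl). It was read from 6 of the 24 libraries of the series, 3 of white cells at d0 and 3 at d3 (WAT siCtrl d0 and WAT siCtrl d3; their titles read siKO, and their siRNA field names the non-targeting control), and from every gene with at least 1 FPKM (fragments per kilobase of transcript, relative to all mapped fragments) in at least 3 of these 6 libraries, which were 13368 of the 49452 genes listed. Each gene was compared on the log2(FPKM + 1) scale with limma. A gene was called when its Benjamini-Hochberg adjusted p lay under 0.05 and its change was at least 1.3-fold, and only called genes are said below to have risen or fallen. Values are given in the order of replicates 1, 2 and 3, and errors of log2 changes are standard errors (SE) with n = 3 libraries per day.

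The cells were primary (1°) stromal-vascular cells of the perigonadal, visceral white fat depot (vWAT) of male C57BL/6 mice aged 6 to 8 weeks, without any genetic alteration named in the labels. All had been nucleofected with siCtrl, a step that the d0 cells share with the d3 cells. The d3 cells had then been given an induction medium with insulin, the glucocorticoid dexamethasone, the PPARγ ligand rosiglitazone and the phosphodiesterase inhibitor IBMX, followed by rosiglitazone alone. The labels do not say whether day 3 is counted from the first or from the second of these media. The other libraries are of brown fat (BAT) precursors and of cells of both depots with an siRNA against the long noncoding RNA *H19* (siH19). The brown cells were given other media, with indomethacin and triiodothyronine first and triiodothyronine in place of rosiglitazone later, and the sources leave unclear which agents of the white induction medium they also received. Nothing in the labels says that the 3 replicates came from separate mice or isolations, so that all p-values measure the spread between these libraries, which may be technical.

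The stromal-vascular fraction is what remains of fat tissue once the floating, lipid-filled adipocytes are removed, and it holds fibroblast-like precursors together with blood vessel, mesothelial and immune cells. When confluent precursors meet insulin, a glucocorticoid and a rise in cAMP, C/EBPβ and C/EBPδ are induced first, and they switch on PPARγ and C/EBPα, which then hold each other and the adipocyte genes active. Adipocytes make fatty acids and triglyceride, store them in a droplet coated by perilipins, release them on adrenergic signals, and secrete hormones such as adiponectin, while the collagen-rich matrix and the contractile fibres of the fibroblast are remodelled.

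The 6 libraries were alike in size and in the number of genes they showed. Between 13012 and 13125 genes per library reached 1 FPKM, and the top 10 genes took up 12.3% to 15.0% of the sum over all genes. The number of reads per library is unknown, and the relative depth read from the steps between low values lay between 0.970 and 1.09. Pearson r between libraries of the same day was 0.981 to 0.984 and between days 0.896 to 0.904, so that the days separated more than the replicates. A value of 0 was not taken as absence, because 76 genes with a median of at least 5 FPKM had a 0 in 1 or more of these libraries. The summed FPKM rose from 746338 to 751484 at d0 to 816662 to 826036 at d3, and scaling all libraries to the same sum moved the median change of all genes from 0.01 to -0.10 on the log2 scale.

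The summed levels of marker genes were used to describe the cells of the cultures. The 12 adipocyte markers made up 0.524% to 0.532% of the summed FPKM at d0 and 2.50% to 2.61% at d3. Some of them were already high at d0, with 258, 242 and 246 FPKM of *Adipoq*, the gene of adiponectin, and 2530, 2519 and 2560 FPKM of *Fabp4*, the fatty acid carrier of adipocytes. Of the 11 tested adipocyte markers 10 rose and 1, *Cfd*, fell, against 26.3% and 23.9% of all tested genes. The ratio of the d3 to the d0 share was 4.86 with *Fabp4*, the most abundant member, and 4.27 without it. The 12 fibroblast and precursor markers held 1.69% to 1.76% at d0 and 1.38% to 1.51% at d3, and 3 of them rose and 6 fell. The shares of the days did not overlap for either list, and an exact two-sided permutation test of 3 against 3 libraries gave p = 0.1 for both, the smallest it allows.

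Markers of other cell types moved as well. The 12 mesothelial markers, genes of the lining of the abdominal cavity, went from 0.0325%–0.0384% of the summed FPKM to 0.00775%–0.0100%, and 9 of the 10 tested ones fell. *Upk3b*, a uroplakin of mesothelium, had 36.7, 36.6 and 40.6 FPKM at d0 and 5.96, 6.81 and 4.27 FPKM at d3 (log2 change -2.56 ± 0.15 (SE), adjusted p = 1.2e-05), and no d3 library reached a d0 library. The 14 macrophage markers went from 0.0536%–0.0609% to 0.0821%–0.0880%, a share that rests largely on *Lyz2* (lysozyme), since the ratio of d3 to d0 was 1.50 with it and 1.196 without it. Within that list 6 of 14 rose, which were *Adgre1*, *Lyz2*, *C1qa*, *C1qb*, *C1qc* and *Mrc1*, and 4 fell, which were *Csf1r*, *Cd68*, *Cd14* and *Ptprc*, the pan-leukocyte gene, at 1.44, 1.88 and 1.69 FPKM at d0 and 0.813, 0.719 and 0.765 FPKM at d3. Of the endothelial markers 2 of 8 tested rose and 4 fell, with *Pecam1* and *Cdh5* between 1.72 and 4.13 FPKM in all 6 libraries and not called. No lymphocyte marker passed the filter, and *Cd3d* was listed at 0 in all 6 libraries. The skeletal muscle genes *Myog*, *Myf5* and *Ckm* were listed at 0 too. In bulk RNA, fewer cells of a type and less RNA per cell cannot be told apart, and the part of these cell types in the changes below was not tested.

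**Figure D1:**
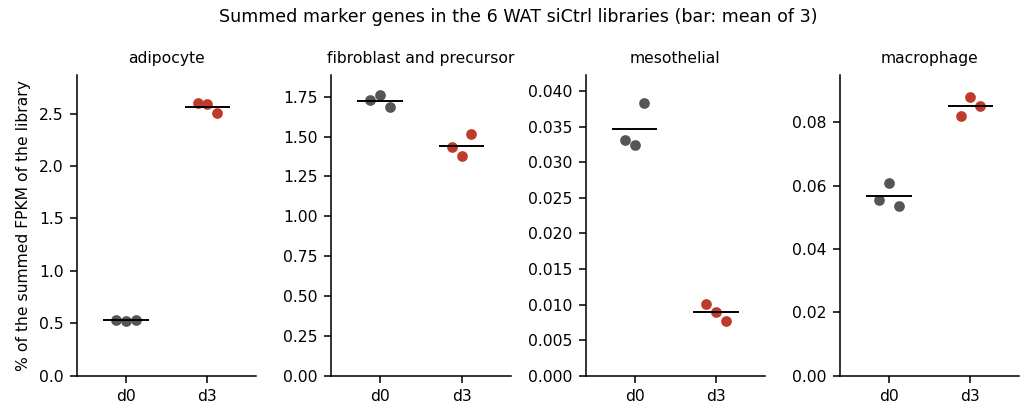
Summed FPKM of 4 marker lists as a percentage of the summed FPKM of each of the 6 WAT siCtrl libraries, by day, with points for libraries and bars for the mean of 3; the vertical axes differ and start at 0. The adipocyte and macrophage sums are higher and the precursor and mesothelial sums lower in all 3 libraries of d3.

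Between d0 and d3, 6720 of the 13368 genes were called, 50.3% of those tested, of which 3519 (26.3%) rose and 3201 (23.9%) fell. The 3 values of d3 lay wholly on one side of the 3 values of d0 for 9515 genes, or 71.2%. Of the called genes, 1187 rose and 990 fell at least 2-fold, 239 rose and 220 fell at least 4-fold, and 18 rose and 22 fell at least 16-fold. After scaling to the same sum the split became 2884 higher and 4027 lower. Among protein-coding genes 3184 of 12036 rose and 2972 fell, and among long noncoding RNAs 261 of 843 rose and 174 fell. The counts of called members in the groups below are set against these shares.

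**Figure D2:**
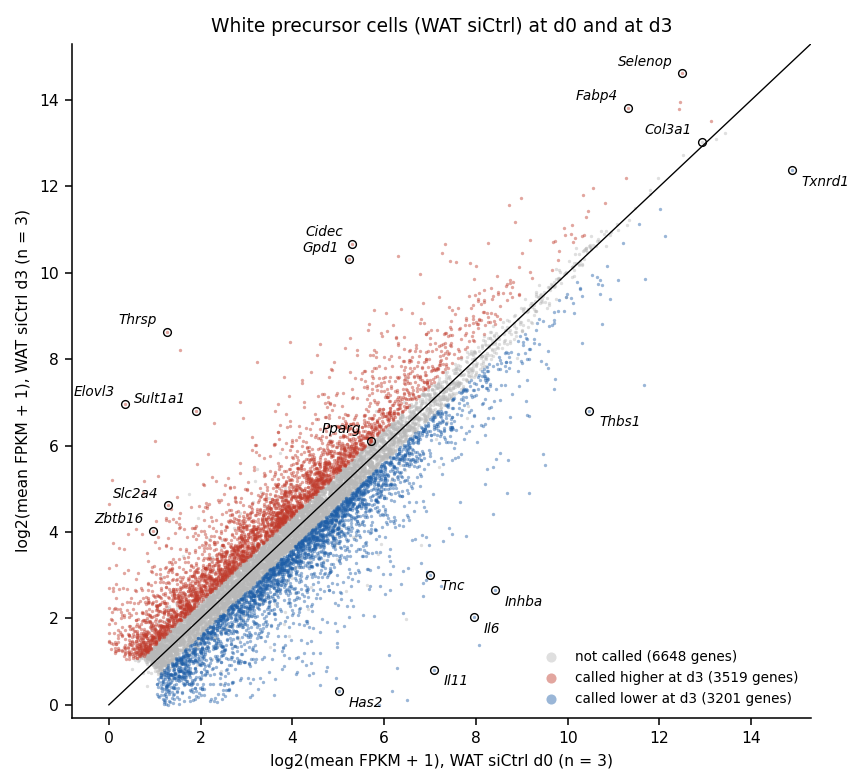
Mean of the 3 d3 libraries against the mean of the 3 d0 libraries on the log2(FPKM + 1) scale for the 13368 tested genes, with called genes coloured, named genes circled and the line of equality drawn. The 3519 genes called higher lie above the line and the 3201 called lower below it, with *Thrsp*, *Elovl3* and *Cidec* far above and *Il6*, *Il11* and *Has2* far below.

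On the log2(FPKM + 1) scale the largest rise was that of *Thrsp* (Spot 14, chr7:97412938-97417730, minus strand, GRCm38), a regulator of fatty acid synthesis. It had 1.57, 1.40 and 1.23 FPKM at d0 and 414, 419.6 and 354 FPKM at d3 (log2 change 7.37 ± 0.09 (SE), adjusted p = 5.0e-08), which places all d3 libraries far above all d0 libraries. *Cyp2e1* (chr7:140763739-140774987, plus strand), a cytochrome P450 that oxidises ethanol and ketones, had 1.78, 1.75 and 2.197 FPKM at d0 and 318, 292 and 272 FPKM at d3 (log2 change 6.66 ± 0.08). *Elovl3* (chr19:46131897-46135307, plus strand), an elongase of very long fatty acids, had 0.374, 0.203 and 0.225 FPKM at d0 and 128, 130.4 and 114 FPKM at d3 (log2 change 6.63 ± 0.08), from close to undetected to over 100 FPKM. The droplet protein *Cidec* (chr6:113424634-113435760, minus strand), which fuses small lipid droplets into large ones, had 39.1, 44.5 and 32.3 FPKM at d0 and 1637, 1702 and 1520 FPKM at d3 (log2 change 5.36 ± 0.11). *Gpd1*, which makes the glycerol 3-phosphate on which triglyceride is built, had 35.6, 38.7 and 35.1 FPKM at d0 and 1264, 1335 and 1207 FPKM at d3 (log2 change 5.08 ± 0.05). Each of these genes had 3 d3 values above all 3 d0 values, which was a condition for choosing them. Their adjusted p lay between 3.1e-08 and 2.7e-07.

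The other genes that rose most also serve lipid handling in part. *Sptlc3*, a subunit of the enzyme that starts sphingolipid synthesis, had 0.0398, 0.0186 and 0.0821 FPKM at d0 and 34.9, 39.5 and 34.1 FPKM at d3 (log2 change 5.15 ± 0.08). *Slc27a1*, the fatty acid transport protein FATP1, rose from 14.4, 13.0 and 15.8 to 362, 324 and 328 FPKM (log2 change 4.46 ± 0.08). *Ces1d*, a carboxylesterase that acts on triglyceride, had 0.423, 0.624 and 2.21 FPKM at d0 and 37.7, 39.8 and 37.2 FPKM at d3 (log2 change 4.33 ± 0.29), with a d0 value in replicate 3 above the other two and still far under d3. The sulfotransferase *Sult1a1* had 2.36, 2.64 and 3.21 FPKM at d0 and 119, 116 and 98.6 FPKM at d3 (log2 change 4.91 ± 0.11). *Folh1*, a glutamate carboxypeptidase, had 0.540, 0.557 and 1.04 FPKM at d0 and 34.8, 33.0 and 38.4 FPKM at d3 (log2 change 4.42 ± 0.13). *Serpina3m* (1.02 to 67.8 FPKM on average, log2 change 5.09 ± 0.10) and *Ctla2a* (8.41 to 246 FPKM, log2 change 4.72 ± 0.09) encode protease inhibitors with near-identical neighbours, and their values are uncertain for that reason, as are those of *Ces1d*.

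Among the genes that fell most were several that encode secreted signals. *Serpinb2* (chr1:107511423-107535478, plus strand), plasminogen activator inhibitor 2, had 245, 279 and 275 FPKM at d0 and 1.41, 1.28 and 2.11 FPKM at d3 (log2 change -6.70 ± 0.12 (SE), adjusted p = 1.8e-07). *Il11* (chr7:4772373-4782857, minus strand), a cytokine of the IL-6 family, had 110.3, 150.4 and 144 FPKM at d0 and 0.878, 0.769 and 0.613 FPKM at d3 (log2 change -6.26 ± 0.13). *Il6* (chr5:30013114-30019981, plus strand), the interleukin for which the family is named, had 194, 276 and 277 FPKM at d0 and 3.29, 2.49 and 3.41 FPKM at d3 (log2 change -5.93 ± 0.16). In all 3 genes every d3 value was under 4 FPKM and every d0 value over 100 FPKM, and in *Il11* and *Il6* replicate 1 was the lowest d0 library. *Inhba* (chr13:16011851-16027211, plus strand), the activin A subunit, had 295, 369.7 and 357 FPKM at d0 and 5.73, 5.12 and 5.04 FPKM at d3 (log2 change -5.76 ± 0.10). *Ptgs2*, the inducible cyclooxygenase that makes prostaglandins, had 58.0, 88.9 and 84.0 FPKM at d0 and 0.534, 0.678 and 1.17 FPKM at d3 (log2 change -5.43 ± 0.20). *Il1rl1*, the receptor of interleukin 33, had 62.3, 80.8 and 70.6 FPKM at d0 and 0.342, 0.186 and 0.218 FPKM at d3 (log2 change -5.85 ± 0.11). A lack of overlap between days was again a condition for choosing these genes, and adjusted p lay between 1.1e-07 and 1.7e-06.

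*Ereg*, a ligand of the EGF receptor, had 56.6, 72.8 and 73.0 FPKM at d0 and 1.13, 1.09 and 1.41 FPKM at d3 (log2 change -4.95 ± 0.12). *Has2*, which makes hyaluronan, had 32.7, 29.6 and 32.2 FPKM at d0 and 0.181, 0.274 and 0.284 FPKM at d3 (log2 change -4.71 ± 0.08). *Ch25h*, cholesterol 25-hydroxylase, had 137, 157 and 156 FPKM at d0 and 4.92, 5.85 and 6.40 FPKM at d3 (log2 change -4.49 ± 0.10). The immediate early factor *Egr3* fell in the same range (30.1 to 0.535 FPKM, log2 change -4.34 ± 0.09), and so did *Mmp12*, the elastase of macrophages, at 91.9, 82.8 and 76.2 FPKM at d0 and 1.90, 5.64 and 2.52 FPKM at d3 (log2 change -4.37 ± 0.29). *S100a9*, a calcium-binding protein of neutrophils, differed widely among the d0 libraries. It had 1.04, 175 and 91.0 FPKM at d0 and 0, 0.255 and 0 FPKM at d3 (log2 change -4.89 ± 1.58 (SE), adjusted p = 0.03). The days did not overlap, as the choice of these genes required. Without any 1 of the d3 libraries the adjusted p of *S100a9* was between 0.066 and 0.073. Its partner *S100a8* had 3.55, 184 and 77.6 FPKM at d0 and 1.76, 3.20 and 3.91 FPKM at d3 and was not called (log2 change -3.39 ± 1.28, adjusted p = 0.053). Replicate 1 of d0 was low for both, and without it *S100a8* had a log2 change of -4.97 and passed.

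The 250 bases upstream of the start site are shown for the 2 genes that rose most and for the 2 that fell most among those with a single start in RefSeq, to set the sequence of the start of transcription beside these changes. They are 5′ to 3′ on the strand of the gene, from RefSeq on GRCm38.p6. Capitals mark matches on either strand to 7 short motifs, which are the TATA box TATAAA, the CCAAT box (ATTGG on the other strand), TGANTCA (the AP-1 site), TGACGTCA (the cAMP response element), TTGCNNCAA (a C/EBP site), the CArG box and the NF-kappaB site. *Thrsp* (chr7:97417551-97417800, minus strand), *Cyp2e1* (chr7:140763569-140763818, plus strand), *Il6* (chr5:30012864-30013113, plus strand) and *Inhba* (chr13:16011601-16011850, plus strand) read as follows.
Thrsp: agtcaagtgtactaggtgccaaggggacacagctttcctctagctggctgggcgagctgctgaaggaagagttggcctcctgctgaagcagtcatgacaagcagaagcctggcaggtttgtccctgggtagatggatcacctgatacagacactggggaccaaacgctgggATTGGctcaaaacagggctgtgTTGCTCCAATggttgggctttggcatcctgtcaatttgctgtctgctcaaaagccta
Cyp2e1: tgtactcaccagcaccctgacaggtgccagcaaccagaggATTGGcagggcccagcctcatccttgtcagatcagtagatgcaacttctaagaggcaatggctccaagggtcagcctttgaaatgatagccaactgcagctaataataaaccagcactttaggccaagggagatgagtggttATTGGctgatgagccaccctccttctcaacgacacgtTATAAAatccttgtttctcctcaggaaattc
Il6: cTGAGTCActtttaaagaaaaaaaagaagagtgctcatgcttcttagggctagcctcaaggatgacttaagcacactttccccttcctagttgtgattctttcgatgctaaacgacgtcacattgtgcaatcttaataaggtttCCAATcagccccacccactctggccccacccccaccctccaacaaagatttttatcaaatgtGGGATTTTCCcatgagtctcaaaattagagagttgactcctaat
Inhba: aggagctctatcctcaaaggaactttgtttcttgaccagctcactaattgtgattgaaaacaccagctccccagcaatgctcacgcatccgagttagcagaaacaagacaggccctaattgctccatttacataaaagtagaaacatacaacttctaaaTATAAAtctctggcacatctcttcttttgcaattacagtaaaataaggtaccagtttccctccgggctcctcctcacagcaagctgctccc

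The *Thrsp* window holds CCAAT at bases 52 to 48 before the start, where it overlaps TTGCTCCAA at bases 57 to 49, and a reversed CCAAT at bases 79 to 75. *Cyp2e1* has TATAAA at bases 31 to 26 and reversed CCAAT boxes at bases 68 to 64 and 210 to 206. In *Il6* the NF-kappaB letters GGGATTTTCC lie at bases 44 to 35, CCAAT at 106 to 102 and TGAGTCA at 249 to 243, and *Inhba* has TATAAA at 91 to 86. Over all 32851 RefSeq windows of this length, 12.4% hold TATAAA, 33.8% CCAAT, 6.75% TGANTCA, 1.55% TGACGTCA, 1.74% TTGCNNCAA, 1.47% the CArG box and 3.90% the NF-kappaB site. For 9648 of 13356 tested genes 12357 windows were found, and of these windows 4.70% hold TGANTCA and 2.55% TGACGTCA. Of the 181 windows of the genes that fell at least 4-fold (141 of 220 genes matched), 12.7% hold TGANTCA and 6.08% TGACGTCA, and of the 214 windows of those that rose at least 4-fold (161 of 239) 6.07% and 0.93%. In the 25 windows of the cytokine list (21 of 30 genes matched), 24.0% hold TGANTCA, 36.0% TATAAA and 28% the NF-kappaB site. The NF-kappaB site is in 4.50% of the windows of tested genes. It is in 7.18% of the windows of genes that fell at least 4-fold and in 3.27% of those that rose at least 4-fold. In the 19 windows of the de novo lipogenesis list, whose called genes all rose, it is in 15.8%. A match describes the letters only, and binding was not measured. The RefSeq starts of *Thrsp* and *Cyp2e1* lie inside the gene bounds given above, which come from the Ensembl models, so that their windows lie partly within those bounds.

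Of the transcription factors that promote adipogenesis, 16 of 27 tested genes rose and 4 fell, with a median log2 change of 0.70 against 0.01 over all tested genes. *Cebpa*, which with PPARγ keeps the adipocyte state, had 119.6, 122 and 118 FPKM at d0 and 376, 385 and 379 FPKM at d3 (log2 change 1.65 ± 0.03 (SE), adjusted p = 1.8e-07), and its replicates hardly differed. *Pparg* itself, the receptor that rosiglitazone binds, had 51.5, 53.6 and 48.6 FPKM at d0 and 72.5, 67.3 and 63.6 FPKM at d3 (log2 change 0.40 ± 0.06). The days did not overlap, yet the rise was small, and the call was lost after scaling to the same sum (log2 change 0.27) and without d0 replicate 3 (0.36) or d3 replicate 1 (0.35). The 2 early factors went opposite ways. *Cebpb* had 90.0, 86.7 and 111 FPKM at d0 and 53.0, 60.8 and 66.4 FPKM at d3 (log2 change -0.66 ± 0.12) and *Cebpd* had 7.89, 7.32 and 7.79 FPKM at d0 and 22.9, 25.4 and 25.5 FPKM at d3 (log2 change 1.56 ± 0.07). *Klf15*, induced by glucocorticoids, rose from 3.79, 3.39 and 2.73 to 23.9, 23.6 and 21.4 FPKM (log2 change 2.48 ± 0.11).

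The factors of lipid synthesis rose together. *Srebf1* (SREBP-1) went from a mean of 129 to 412 FPKM (log2 change 1.67 ± 0.08), *Nr1h3* (the oxysterol receptor LXRα) from 18.8 to 83.7 FPKM (log2 change 2.09 ± 0.10) and *Mlxipl* (the glucose-sensing ChREBP) from 4.49 to 20.5 FPKM (log2 change 1.98 ± 0.11). The coactivators *Ppargc1a* (0.456 to 2.03 FPKM, log2 change 1.06 ± 0.15) and *Ppargc1b* (0.675 to 3.36 FPKM, log2 change 1.38 ± 0.10), which drive mitochondrial genes, rose from very low levels. *Ebf1* had 31.4, 36.7 and 28.7 FPKM at d0 and 39.4, 42.3 and 32.5 FPKM at d3 and *Zfp423*, a factor of committed precursors, had 10.01, 6.16 and 9.28 FPKM at d0 and 14.3, 8.55 and 13.4 FPKM at d3. Neither was called, and in both the days overlapped.

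Of the factors that hold adipogenesis back, 3 of 16 tested genes rose and 11 fell (median -1.05). *Gata2*, which represses *Pparg*, had 22.6, 20.2 and 23.0 FPKM at d0 and 7.97, 9.03 and 8.88 FPKM at d3 (log2 change -1.25 ± 0.08). The Runt factor *Runx1* had 17.9, 18.8 and 17.5 FPKM at d0 and 2.08, 2.69 and 3.02 FPKM at d3 (log2 change -2.41 ± 0.11), the largest fall of the list. *Hes1*, the Notch target, went from 27.1 to 7.92 FPKM (log2 change -1.67 ± 0.12), *Twist1* from 48.4 to 19.2 FPKM (log2 change -1.29 ± 0.08) and *Ddit3* (CHOP) from 71.3 to 32.8 FPKM (log2 change -1.09 ± 0.06). The 3 members that rose were *Nr2f2* (COUP-TFII), *Tcf7l1* and *Zfp521*. Of these *Nr2f2* had 40.4, 41.9 and 38.4 FPKM at d0 and 76.5, 81.4 and 77.2 FPKM at d3 (log2 change 0.95 ± 0.05).

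The proteins of the lipid droplet and of lipolysis rose as a group, since 15 of 16 tested genes rose and 1 fell (median 1.81). *Plin1*, the perilipin that guards the droplet, had 255, 248 and 255 FPKM at d0 and 727, 718 and 719 FPKM at d3 (log2 change 1.51 ± 0.03), and *Plin2*, found on droplets of all cells, went from 230 to 702 FPKM (log2 change 1.61 ± 0.04). The 3 lipases that break triglyceride down in sequence all rose. *Pnpla2* (ATGL) had 149, 154 and 154 FPKM at d0 and 1430, 1402 and 1371 FPKM at d3 (log2 change 3.19 ± 0.03 (SE), adjusted p = 3.1e-08), with the replicates of each day close together. *Lipe* (hormone-sensitive lipase) went from 75.8 to 365 FPKM (log2 change 2.25 ± 0.05) and *Mgll* (monoglyceride lipase) from 26.7 to 190.4 FPKM (log2 change 2.79 ± 0.04). Their partners moved the same way, *Abhd5*, the activator of ATGL, by 1.96 ± 0.03 and *G0s2*, its inhibitor, by 1.67 ± 0.03. *Hilpda*, a hypoxia-induced inhibitor of ATGL, was the 1 member that fell (32.3, 37.1 and 37.8 to 10.01, 13.0 and 11.6 FPKM, log2 change -1.56 ± 0.10).

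For fatty acid uptake and binding, 13 of 18 tested genes rose and 3 fell (median 0.62). *Fabp4* had 2530, 2519 and 2560 FPKM at d0 and 14530, 14710 and 13960 FPKM at d3 (log2 change 2.50 ± 0.03 (SE), adjusted p = 5.7e-08) and was among the most abundant mRNAs of d3. *Cd36*, the fatty acid translocase, had 251, 238 and 215 FPKM at d0 and 1244, 1161 and 1193 FPKM at d3 (log2 change 2.35 ± 0.06). *Lpl*, the lipase that frees fatty acids from lipoproteins, was high at d0 and went from 844 to 1708 FPKM (log2 change 1.02 ± 0.03). The acyl-CoA synthetases split. *Acsl1* had 147, 168 and 162 FPKM at d0 and 1706, 1561 and 1645 FPKM at d3 (log2 change 3.35 ± 0.06), whereas *Acsl4*, which prefers arachidonate, had 100.5, 104 and 104 FPKM at d0 and 22.1, 24.3 and 28.5 FPKM at d3 (log2 change -2.01 ± 0.09). *Fabp5*, the carrier that fat shares with skin, went from 304 to 1653 FPKM (log2 change 2.44 ± 0.03). *Fabp3*, the heart-type carrier, fell from 4.03, 5.45 and 6.90 to 0.743, 0.254 and 0.238 FPKM (log2 change -2.19 ± 0.21).

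In de novo lipogenesis, the making of fatty acids from citrate, 14 of 19 tested genes rose and 0 fell (median 2.24). *Fasn*, the fatty acid synthase, had 48.2, 44.2 and 54.5 FPKM at d0 and 407, 420.2 and 394 FPKM at d3 (log2 change 3.04 ± 0.08 (SE), adjusted p = 4.6e-07). *Acaca*, the carboxylase that commits carbon to the pathway, had 17.9, 17.6 and 18.9 FPKM at d0 and 138, 108 and 136 FPKM at d3 (log2 change 2.73 ± 0.10). *Scd1*, which introduces the first double bond, had 508, 479.9 and 528 FPKM at d0 and 3585, 3289 and 3380 FPKM at d3 (log2 change 2.76 ± 0.05). For the 3 enzymes the d3 values lay far above the d0 values, with no overlap between days. *Acly*, which splits citrate, rose less (94.1 to 204 FPKM, log2 change 1.10 ± 0.05). Genes whose products supply carbon and NADPH to the pathway rose too, *Pcx* (pyruvate carboxylase) from 41.6 to 296 FPKM (log2 change 2.80 ± 0.05), *Me1* (malic enzyme) from 72.5 to 443 FPKM (log2 change 2.60 ± 0.06) and *Slc25a1* (the citrate carrier) from 75.2 to 359.6 FPKM (log2 change 2.24 ± 0.05). Not called were *Elovl1*, *Elovl5*, *Elovl6*, *Fads1* and *Fads2*, elongases and desaturases with changes between -0.12 and 0.37.

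For triglyceride synthesis 10 of 14 tested genes rose and 2 fell (median 1.37). *Agpat2*, the acyltransferase whose loss causes lipodystrophy, had 76.4, 79.7 and 78.9 FPKM at d0 and 1369, 1365 and 1302 FPKM at d3 (log2 change 4.08 ± 0.04 (SE), adjusted p = 3.1e-08). *Gpat3* went from 20.5 to 91.5 FPKM (log2 change 2.104 ± 0.04), *Dgat1* from 70.3 to 267 FPKM (log2 change 1.91 ± 0.07) and *Dgat2* from 52.7 to 195 FPKM (log2 change 1.87 ± 0.08), so that every step to triglyceride had a member that rose. The lipins diverged. *Lpin1* had 8.01, 7.23 and 8.60 FPKM at d0 and 45.5, 44.2 and 44.0 FPKM at d3 (log2 change 2.35 ± 0.07), while *Lpin2* and *Lpin3* fell (log2 change -0.65 ± 0.11 and -1.26 ± 0.10). *Pck1*, the enzyme of glyceroneogenesis, had 0, 0.0153 and 0.101 FPKM at d0 and 1.69, 2.07 and 1.36 FPKM at d3 (log2 change 1.38 ± 0.12) and stayed low.

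**Figure D3:**
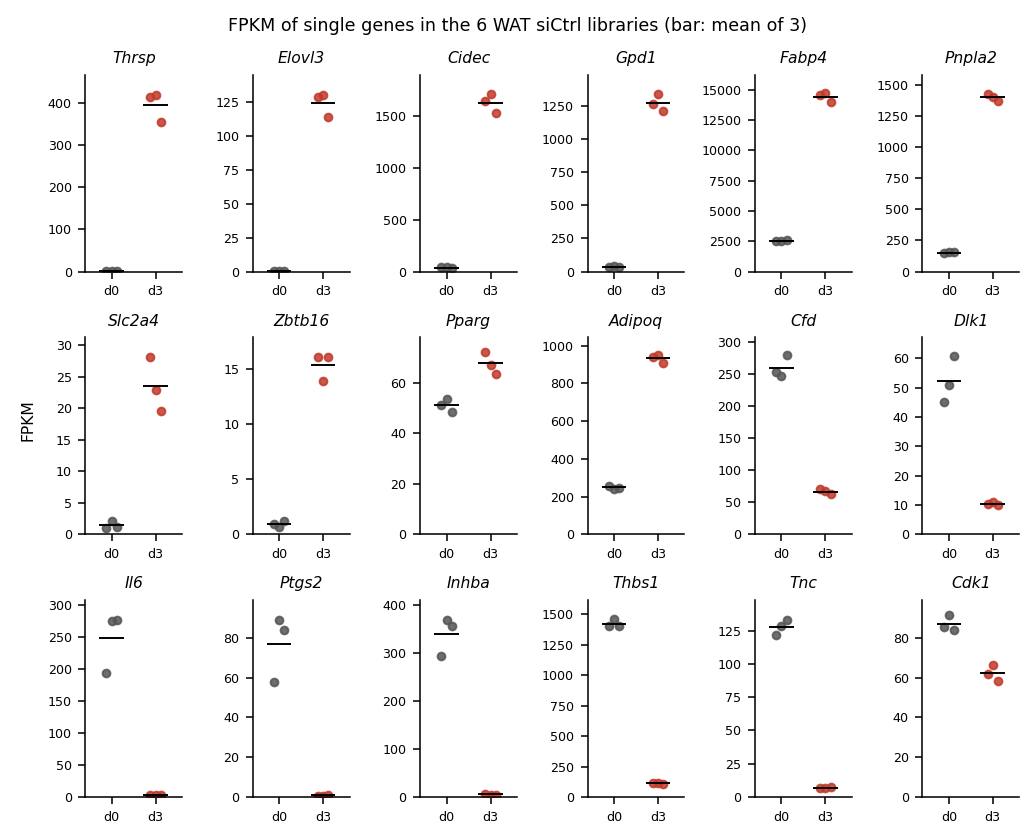
FPKM of 18 genes in the 6 WAT siCtrl libraries, with 1 point per library, a bar at the mean of 3 and vertical axes that start at 0 and differ between panels. In every panel the libraries of the days are apart, and *Pparg* has the smallest log2 change of the 18, from a mean of 51.2 to 67.8 FPKM.

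Of the adipokines and other secreted proteins of adipocytes, 10 of 15 tested genes rose and 3 fell (median 0.55). *Adipoq* had 258, 242 and 246 FPKM at d0 and 939.5, 949.5 and 908 FPKM at d3 (log2 change 1.90 ± 0.04 (SE), adjusted p = 2.0e-07), and *Retn*, resistin, had 105, 108 and 109 FPKM at d0 and 262, 279 and 259.5 FPKM at d3 (log2 change 1.31 ± 0.04). *Cfd*, adipsin, the complement factor D made by fat cells, went the other way at 254, 248 and 279.6 FPKM at d0 and 70.6, 67.1 and 62.5 FPKM at d3 (log2 change -1.95 ± 0.06). All 3 pairs of groups were apart. *Agt* (angiotensinogen) went from 102 to 306 FPKM (log2 change 1.58 ± 0.04), *Lcn2* (lipocalin 2) from 122 to 395 FPKM (log2 change 1.69 ± 0.08) and *Nampt* from 14.2 to 43.0 FPKM (log2 change 1.54 ± 0.07). *Metrnl* and *Apln* fell, *Metrnl* from 74.9 to 18.4 FPKM (log2 change -1.97 ± 0.08). Leptin (*Lep*) was under 1 FPKM in all 6 libraries.

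In insulin signalling and glucose uptake 12 of 23 tested genes rose and 4 fell (median 0.41). The 2 main glucose transporters changed in opposite directions. *Slc2a4*, the insulin-dependent GLUT4, had 0.966, 2.15 and 1.21 FPKM at d0 and 28.1, 22.9 and 19.6 FPKM at d3 (log2 change 3.34 ± 0.21 (SE), adjusted p = 1.7e-05). *Slc2a1*, the constitutive GLUT1, had 111, 124 and 112 FPKM at d0 and 21, 25.2 and 22.3 FPKM at d3 (log2 change -2.29 ± 0.08), and at d3 the values of both genes lay between 19.6 and 28.1 FPKM. The insulin receptor *Insr* had 6.67, 7.64 and 6.71 FPKM at d0 and 18.2, 12.1 and 16.8 FPKM at d3 (log2 change 1.05 ± 0.15), *Irs3* rose from a mean of 0.901 to 7.50 FPKM (log2 change 2.16 ± 0.13) and *Irs1* was not called (1.47 to 1.53 FPKM). *Pde3b*, the phosphodiesterase through which insulin restrains lipolysis, went from 12.01 to 69.9 FPKM (log2 change 2.45 ± 0.07), and *Igf1r*, the receptor of IGF1, fell from 6.80 to 3.78 FPKM (log2 change -0.70 ± 0.10).

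Glycolysis had no common direction, since 5 of 17 tested genes rose and 2 fell and the median was 0.01 (-0.12 after scaling to the same sum). *Hk2*, the inducible hexokinase, had 42.2, 46.7 and 46.7 FPKM at d0 and 11.8, 12.8 and 10.8 FPKM at d3 (log2 change -1.85 ± 0.08). *Tpi1* went from 322 to 796 FPKM (log2 change 1.31 ± 0.04) and *Aldoa* from 901 to 1449 FPKM (log2 change 0.69 ± 0.04). *Gpi1*, *Pfkl*, *Pgk1* and *Ldha* had changes between -0.03 and 0.01 and were not called. *Ldha*, lactate dehydrogenase A, had 713, 728 and 673 FPKM at d0 and 685, 715 and 702 FPKM at d3, and the days overlapped.

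Past glycolysis nearly all tested genes of the mitochondrial pathways rose. For pyruvate entry and the TCA cycle 26 of 28 tested genes rose and 0 fell (median 1.26). *Mpc1*, a subunit of the mitochondrial pyruvate carrier, had 54.0, 59.8 and 70.1 FPKM at d0 and 366, 397 and 351 FPKM at d3 (log2 change 2.59 ± 0.10 (SE), adjusted p = 2.1e-06). *Cs*, citrate synthase, had 103, 104 and 100.2 FPKM at d0 and 334, 316 and 315 FPKM at d3 (log2 change 1.64 ± 0.04). *Pdk4*, the kinase that shuts pyruvate dehydrogenase, had 3.18, 4.54 and 3.50 FPKM at d0 and 41.7, 37.0 and 34.3 FPKM at d3 (log2 change 3.03 ± 0.13). The 2 members not called were *Pdk1* (17.7 to 18.0 FPKM) and *Idh2* (76.8 to 77.0 FPKM).

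For fatty acid oxidation 21 of 22 tested genes rose and 1 fell (median 1.67). *Acadm*, the medium-chain acyl-CoA dehydrogenase, had 67.5, 57.7 and 70.3 FPKM at d0 and 565, 543 and 493 FPKM at d3 (log2 change 3.02 ± 0.09 (SE), adjusted p = 7.0e-07), and *Acadl*, the long-chain enzyme, had 62.6, 60.0 and 57.9 FPKM at d0 and 394, 388 and 386 FPKM at d3 (log2 change 2.67 ± 0.04). The carnitine palmitoyltransferases at the mitochondrial gate moved apart. *Cpt1a*, the liver form, had 26.3, 24.5 and 27.1 FPKM at d0 and 14.6, 14.1 and 14.9 FPKM at d3 (log2 change -0.79 ± 0.06) and was the member that fell. *Cpt1b*, the muscle form, had 1.18, 1.53 and 1.43 FPKM at d0 and 13.7, 9.92 and 12.3 FPKM at d3 (log2 change 2.44 ± 0.13). At d3 the 2 forms lay within 9.92 to 14.9 FPKM.

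Catabolism of branched-chain amino acids followed, since 20 of 21 tested genes rose and 1 fell (median 1.17). The 2 transaminases that open the pathway changed in opposite directions. *Bcat1*, the cytosolic form, had 101, 93.7 and 96.3 FPKM at d0 and 25.9, 35.6 and 32.5 FPKM at d3 (log2 change -1.61 ± 0.11). *Bcat2*, the mitochondrial form of fat and muscle, had 37.0, 37.2 and 36.8 FPKM at d0 and 367, 351 and 352 FPKM at d3 (log2 change 3.23 ± 0.03 (SE), adjusted p = 3.1e-08). Downstream, *Bckdhb* went from 11.3 to 64.6 FPKM (log2 change 2.41 ± 0.07), *Hibch* from 21.9 to 97.8 FPKM (log2 change 2.12 ± 0.12) and *Pcca* from 26.5 to 127 FPKM (log2 change 2.23 ± 0.12).

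Of the nuclear-encoded subunits of the respiratory chain, all 72 tested rose, against the 26.3% of all tested genes, and the median was 1.002. The changes ran from 0.50 in *Ndufs4* of complex I to 1.80 in *Cycs*, cytochrome c. *Cycs* had 41.2, 50.8 and 47.5 FPKM at d0 and 168, 171 and 154 FPKM at d3 (log2 change 1.80 ± 0.08), and the ATP synthase subunit *Atp5b* had 1108, 1075 and 1111 FPKM at d0 and 2292, 2221 and 2071 FPKM at d3 (log2 change 0.998 ± 0.04). In all 72 genes the 3 d3 values lay above the 3 d0 values. In the peroxisome list 24 of 28 tested genes rose and 1 fell (median 1.11). *Ephx2*, soluble epoxide hydrolase, had 18.3, 16.9 and 17.5 FPKM at d0 and 185, 184 and 178 FPKM at d3 (log2 change 3.31 ± 0.04).

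Cholesterol synthesis moved in both directions. In the list 13 of 21 tested genes rose and 3 fell (median 1.12). *Dhcr7*, which completes cholesterol, had 14.2, 12.2 and 12.9 FPKM at d0 and 196, 189 and 189.8 FPKM at d3 (log2 change 3.77 ± 0.06 (SE), adjusted p = 1.1e-07), and *Cyp51*, lanosterol demethylase, had 60.9, 64.2 and 73.9 FPKM at d0 and 418, 392 and 394 FPKM at d3 (log2 change 2.58 ± 0.07). *Srebf2*, the factor that controls the pathway, was among the members that fell (29.3 to 21.02 FPKM, log2 change -0.46 ± 0.05). *Insig1*, which retains SREBP in the endoplasmic reticulum, rose from 93.8 to 294 FPKM (log2 change 1.64 ± 0.05).

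Genes known as direct targets of PPARγ or PPARα changed with the lipid genes they partly overlap, since 23 of 26 tested genes rose and 2 fell (median 2.04). *Ehhadh*, an enzyme of peroxisomal fatty acid oxidation, had 1.82, 1.85 and 2.08 FPKM at d0 and 16.6, 16.9 and 15.7 FPKM at d3 (log2 change 2.58 ± 0.07). *Angptl4*, the inhibitor of lipoprotein lipase, went from 115 to 176 FPKM (log2 change 0.61 ± 0.04). *Ucp2* went from 43.8 to 184 FPKM (log2 change 2.05 ± 0.06). The 2 members that fell were *Cpt1a* and *Hilpda*.

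**Figure D4:**
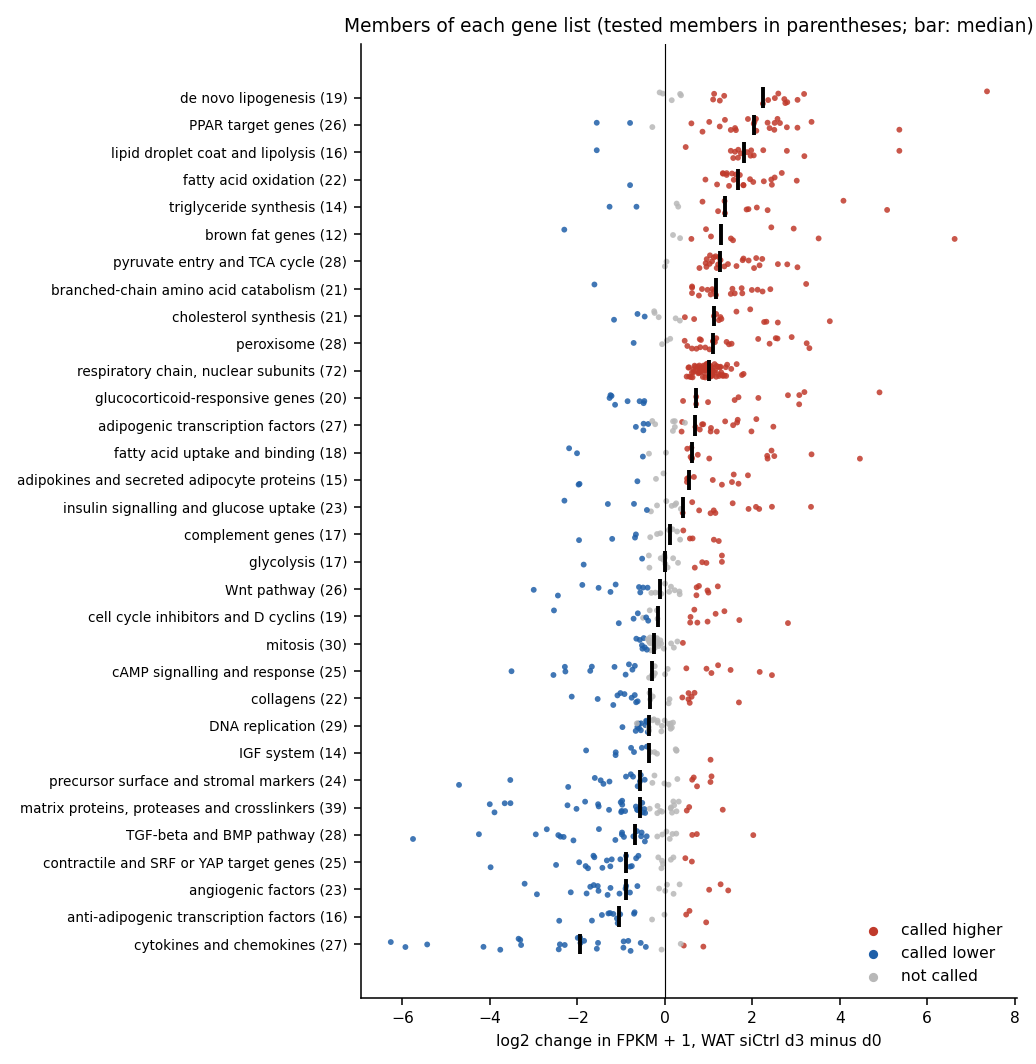
Change of each tested list member between d0 and d3 on the log2(FPKM + 1) scale, with 1 row per list of pathway or function (marker lists are not shown) in order of its median, coloured points for called genes and a bar at the median. The respiratory chain and TCA cycle rows hold no gene called lower, and of the rows shown that of the cytokines has the lowest median, -1.93.

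Of the genes known for brown fat, 12 of the 20 found in the table passed the filter. *Ucp1*, the uncoupling protein of brown fat, was listed at 0 in all 6 libraries, and *Cidea* was at most 0.12 FPKM. Of the tested members 9 of 12 rose and 1 fell (median 1.28). *Elovl3*, described above, belongs to this list and had its largest rise (log2 change 6.63 ± 0.08). The d3 to d0 ratio of the summed share of the list was 5.42 with *Elovl3* and 2.36 without it. *Cox7a1* had 3.17, 1.77 and 0.872 FPKM at d0 and 22.4, 18.0 and 21.3 FPKM at d3 (log2 change 2.95 ± 0.28), and *Cox8b*, a muscle and brown fat form of cytochrome oxidase subunit 8, had 0.255, 0.238 and 0.526 FPKM at d0 and 14.1, 17.2 and 11.9 FPKM at d3 (log2 change 3.52 ± 0.15). *Dio2*, which makes active thyroid hormone, fell at 17.6, 14.1 and 13.9 FPKM at d0 and 4.20, 0.527 and 3.45 FPKM at d3 (log2 change -2.30 ± 0.45), with a wide spread at d3 and no overlap.

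The induction medium of the d3 cells held a glucocorticoid. All 20 tested genes of the glucocorticoid-responsive list were called, 12 higher and 8 lower (median 0.72). *Zbtb16*, among the strongest known targets, had 0.963, 0.687 and 1.22 FPKM at d0 and 16.1, 13.9 and 16.1 FPKM at d3 (log2 change 3.07 ± 0.12 (SE), adjusted p = 2.4e-06). *Tsc22d3* (GILZ) had 8.11, 8.07 and 6.93 FPKM at d0 and 74.2, 74.5 and 67.9 FPKM at d3 (log2 change 3.08 ± 0.07), and *Fkbp5*, the chaperone that damps the receptor, had 17.9, 16.2 and 16.6 FPKM at d0 and 82.0, 76.6 and 74.8 FPKM at d3 (log2 change 2.14 ± 0.06). *Glul*, glutamine synthetase, went from 109 to 1006 FPKM (log2 change 3.19 ± 0.07). Other known targets fell, among them *Sgk1* (83.6, 94.3 and 96.3 to 37.5, 39.6 and 36.9 FPKM, log2 change -1.24 ± 0.06), *Errfi1* (372 to 169 FPKM, log2 change -1.14 ± 0.05) and *Dusp1* (39.9 to 28.4 FPKM, log2 change -0.47 ± 0.10). The receptor gene *Nr3c1* fell from 29.0 to 20.4 FPKM (log2 change -0.48 ± 0.05), and *Hsd11b1*, which regenerates active glucocorticoid, from 28.4 to 11.7 FPKM (log2 change -1.22 ± 0.07).

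Of the genes of cAMP signalling 7 of 25 tested genes rose and 11 fell (median -0.30). Receptors and kinase subunits were among those that rose. *Adrb3*, the β3-adrenergic receptor, had 26.7, 23.1 and 28.3 FPKM at d0 and 58.3, 57.1 and 51.1 FPKM at d3 (log2 change 1.07 ± 0.09), and *Prkar2b*, a regulatory subunit of protein kinase A, had 46.2, 42.6 and 45.7 FPKM at d0 and 214, 200 and 202 FPKM at d3 (log2 change 2.17 ± 0.05). Immediate early genes were among those that fell. *Nr4a1* had 92.4, 115 and 125 FPKM at d0 and 9.32, 9.14 and 7.92 FPKM at d3 (log2 change -3.50 ± 0.12), and *Fosb* had 6.42, 6.24 and 6.52 FPKM at d0 and 0.402, 0.761 and 0.448 FPKM at d3 (log2 change -2.27 ± 0.11). *Areg*, an EGF receptor ligand, had 3.10, 4.67 and 4.56 FPKM at d0 and 0, 0.117 and 0 FPKM at d3, and *Crem*, an inducible repressor of cAMP targets, fell from 16.6 to 9.50 FPKM (log2 change -0.74 ± 0.12).

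Cytokines and chemokines fell as a list, 23 of 27 tested against 2 that rose, beside 23.9% of all tested genes, with a median of -1.93. Besides *Il6* and *Il11*, *Lif*, a further IL-6 family member, had 18.7, 25.4 and 26.0 FPKM at d0 and 0.342, 0.227 and 0.536 FPKM at d3 (log2 change -4.15 ± 0.15). *Ccl2*, the monocyte attractant, had 359.5, 444 and 413 FPKM at d0 and 30.7, 31.1 and 25.1 FPKM at d3 (log2 change -3.76 ± 0.11 (SE), adjusted p = 7.1e-07), and *Csf1*, the growth factor of macrophages, had 1274, 1255 and 1266 FPKM at d0 and 323, 342 and 324 FPKM at d3 (log2 change -1.94 ± 0.03). *Tslp*, *Cxcl14* and *Ccl7* fell as well, with log2 changes of -3.34 ± 0.14, -3.29 ± 0.08 and -3.31 ± 0.11. The 2 that rose were *Cxcl12* (186, 169 and 178 to 241, 236 and 242 FPKM, log2 change 0.43 ± 0.04), whose call was lost after scaling to the same sum (log2 change 0.30), and *Tnfsf11* (0.760 to 2.21 FPKM, log2 change 0.88 ± 0.16). *Ccl9* had 127, 137 and 119 FPKM at d0 and 112, 120.5 and 131 FPKM at d3 and was not called.

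Few genes of DNA replication and mitosis rose. For replication 0 of 29 tested genes rose and 12 fell (median -0.37). *Pcna*, the clamp of the replicating polymerase, had 65.3, 63.1 and 58.5 FPKM at d0 and 39.7, 40.9 and 42.0 FPKM at d3 (log2 change -0.60 ± 0.05), and *Mcm5* of the helicase had 19.5, 19.7 and 19.3 FPKM at d0 and 11.5, 12.7 and 13.2 FPKM at d3 (log2 change -0.61 ± 0.06). For mitosis 1 of 30 tested genes rose and 7 fell (median -0.26), counts that became 0 and 15 after scaling to the same sum. *Cdk1*, the kinase that drives mitosis, had 85.7, 91.8 and 84.2 FPKM at d0 and 61.9, 66.3 and 58.4 FPKM at d3 (log2 change -0.48 ± 0.06). *Mki67* had 6.16, 5.54 and 6.26 FPKM at d0 and 4.72, 4.76 and 5.40 FPKM at d3 and *Top2a* had 30.4, 25.1 and 24.4 FPKM at d0 and 22.0, 25.7 and 24.2 FPKM at d3, and neither was called. The cyclin *Ccnb2* was the member that rose (log2 change 0.41 ± 0.08), and it lost the call after scaling to the same sum (0.29) and without d0 replicate 3 (0.36) or d3 replicate 3 (0.37).

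Inhibitors of the cell cycle changed in both directions. *Cdkn1c* (p57), an imprinted inhibitor, had 1.51, 3.13 and 2.73 FPKM at d0 and 23.6, 24.6 and 20.5 FPKM at d3 (log2 change 2.82 ± 0.19 (SE), adjusted p = 2.6e-05). *Cdkn2c* (p18), a known companion of terminal differentiation, had 23.3, 20.2 and 21.2 FPKM at d0 and 75.0, 73.2 and 69.3 FPKM at d3 (log2 change 1.70 ± 0.06), and *Cdkn2b* (p15) went from 15.2 to 40.8 FPKM (log2 change 1.36 ± 0.07). *Cdkn1a* (p21) fell from 229, 241 and 244 to 183, 189 and 177 FPKM (log2 change -0.38 ± 0.04), a call lost without d0 replicate 2 or 3 or d3 replicate 3, where the change was between -0.37 and -0.36. The cyclin *Ccnd1*, which starts the cycle, had 9.19, 9.75 and 8.23 FPKM at d0 and 4.29, 6.71 and 7.80 FPKM at d3 and was not called (log2 change -0.50 ± 0.19). After scaling to the same sum its log2 change was -0.61, and it passed. In this list 9 of 19 tested genes rose and 6 fell (median -0.17).

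The collagens changed in both directions, since 7 of 22 tested genes rose and 10 fell (median -0.34). The fibrillar *Col1a1* had 1699, 1633 and 1648 FPKM at d0 and 740.3, 711 and 748 FPKM at d3 (log2 change -1.18 ± 0.03 (SE), adjusted p = 6.8e-07) and *Col1a2* had 1655, 1583 and 1607 FPKM at d0 and 882, 835 and 839.5 FPKM at d3 (log2 change -0.92 ± 0.04). *Col3a1*, a further fibrillar collagen and the one with the highest FPKM, had 7744, 8071 and 7488 FPKM at d0 and 8260, 7969 and 8904 FPKM at d3 and was not called (log2 change 0.11 ± 0.05). The main chains of basement membrane collagen IV and of the pericellular collagen VI rose. *Col4a1* had 1273, 1297 and 1257 FPKM at d0 and 1929, 1718 and 1928 FPKM at d3 (log2 change 0.54 ± 0.05), and *Col6a2* had 268, 272 and 248 FPKM at d0 and 418, 414 and 431 FPKM at d3 (log2 change 0.68 ± 0.04). With them rose *Col4a2*, *Col6a1*, *Col6a3* and the fibrillar *Col5a3* and *Col11a1*, whereas *Col4a5* and *Col4a6* fell.

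Among the other matrix proteins, the proteases and the crosslinkers, 3 of 39 tested genes rose and 24 fell (median -0.57). *Fn1*, fibronectin, had 1930, 1933 and 1926 FPKM at d0 and 631, 673 and 706 FPKM at d3 (log2 change -1.52 ± 0.04 (SE), adjusted p = 7.5e-07). *Sparc*, a matricellular protein and the most abundant gene of the list, went from 4101 to 2867 FPKM (log2 change -0.52 ± 0.03). A pair of other matricellular proteins fell further. *Thbs1*, thrombospondin 1, had 1401, 1456 and 1402 FPKM at d0 and 112, 113 and 109 FPKM at d3 (log2 change -3.66 ± 0.03), and *Tnc*, tenascin C, had 122, 128 and 133 FPKM at d0 and 7.04, 6.52 and 7.57 FPKM at d3 (log2 change -4.002 ± 0.07). The protease inhibitor *Timp3* had 211, 213 and 234 FPKM at d0 and 17.0, 14.4 and 10.7 FPKM at d3 (log2 change -3.89 ± 0.15), and *Timp1* went from 3291 to 931 FPKM (log2 change -1.82 ± 0.05). *Lox*, which crosslinks collagen, went from 836 to 542 FPKM (log2 change -0.62 ± 0.04). The 3 that rose were the proteases *Adamts1* and *Adamts5* and the basement membrane laminin *Lama4*, and *Adamts1* was not called after scaling to the same sum (0.38). *Adamts5* had 24.4, 23.4 and 22.4 FPKM at d0 and 60.9, 57.4 and 62.1 FPKM at d3 (log2 change 1.32 ± 0.05).

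In the list of contractile genes and targets of SRF and YAP, which read out tension of the actin fibres, 2 of 25 tested genes rose and 17 fell (median -0.89). *Ctgf*, a classical YAP target, had 771, 683 and 729.5 FPKM at d0 and 47.7, 52.5 and 36.4 FPKM at d3 (log2 change -3.98 ± 0.13 (SE), adjusted p = 1.2e-06), and *Cyr61* had 571, 608 and 539 FPKM at d0 and 96.1, 110.2 and 98.1 FPKM at d3 (log2 change -2.49 ± 0.07). *Tpm1*, tropomyosin, had 762, 710 and 728 FPKM at d0 and 237, 258 and 214 FPKM at d3 (log2 change -1.63 ± 0.07). *Acta2*, the smooth muscle actin of myofibroblasts, had 544, 470.2 and 473 FPKM at d0 and 435, 494 and 412 FPKM at d3 and was not called. The genes of YAP and TAZ, *Yap1* and *Wwtr1*, were not called either (36.0 to 34.0 FPKM and 34.5 to 38.1 FPKM on average), whereas *Srf* fell from 29.1 to 12 FPKM (log2 change -1.21 ± 0.05). *Actg2*, an enteric actin, was called higher (0.47 ± 0.17, adjusted p = 0.047) although its days overlapped, at 20.5, 13.1 and 15.4 FPKM at d0 and 22.1, 26.3 and 20.1 FPKM at d3. The call was lost without the filter (adjusted p = 0.10), after scaling to the same sum (0.11), in the fit without the trend (0.055), with the replicate block (0.077) and without d0 replicate 2 or 3 or d3 replicate 1 or 2 (0.088 to 0.13).

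Surface and stromal markers of precursors fell in part, since 5 of 24 tested genes rose and 14 fell (median -0.56). *Dlk1* (Pref-1), a membrane protein that restrains adipogenesis, had 45.2, 51.0 and 60.8 FPKM at d0 and 10.4, 10.9 and 10.1 FPKM at d3 (log2 change -2.21 ± 0.11 (SE), adjusted p = 5.8e-06). *Pdgfra*, by which precursors are sorted, had 112, 113 and 118 FPKM at d0 and 82.9, 79.6 and 86.9 FPKM at d3 (log2 change -0.46 ± 0.05). *Ly6a* (Sca-1), a further sorting marker, had 331, 351 and 281 FPKM at d0 and 499.5, 523 and 582 FPKM at d3 (log2 change 0.74 ± 0.09) and rose. *Cd34* and *Dcn* (decorin) were not called, with means of 14.3 to 15.5 FPKM and 777 to 772 FPKM. *Thy1* fell from 86.3 to 46.2 FPKM (log2 change -0.89 ± 0.05), and the hyaluronan synthase *Has1* fell from 30.4 to 1.68 FPKM (log2 change -3.53 ± 0.17).

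In the TGF-β and BMP pathway 3 of 28 tested genes rose and 19 fell (median -0.68). Of the ligands *Tgfb1* had 60.9, 58.0 and 59.0 FPKM at d0 and 11.01, 9.93 and 10.7 FPKM at d3 (log2 change -2.38 ± 0.05), and *Bmp4* fell from 8.44 to 3.79 FPKM (log2 change -0.98 ± 0.10). Of the receptors *Tgfbr1* fell from 59.3 to 29.6 FPKM (log2 change -0.98 ± 0.06), and *Acvr1c* (ALK7), an adipocyte receptor, rose from 1.18 to 7.88 FPKM (log2 change 2.02 ± 0.14). Among inhibitors and feedback genes, *Fst* (follistatin) had 194, 211 and 196 FPKM at d0 and 24.6, 24.6 and 25.9 FPKM at d3 (log2 change -2.95 ± 0.05), and *Smad7* had 38.7, 42.7 and 44.6 FPKM at d0 and 7.81, 7.70 and 7.41 FPKM at d3 (log2 change -2.31 ± 0.07).

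Wnt signalling had no common direction, as 6 of 26 tested genes rose and 10 fell (median -0.10). The ligands *Wnt2* (15.5, 17.0 and 16.3 to 1.25, 1.04 and 1.21 FPKM, log2 change -2.997 ± 0.08), *Wnt5a* (log2 change -1.89 ± 0.12) and *Wnt11* (log2 change -2.44 ± 0.14) fell. *Wnt4* rose from 11.8 to 20.2 FPKM (log2 change 0.73 ± 0.05). Of the secreted antagonists *Sfrp1* had 113, 97.3 and 105 FPKM at d0 and 246, 241 and 247 FPKM at d3 (log2 change 1.21 ± 0.06), and *Sfrp2* had 218, 206 and 188 FPKM at d0 and 83.4, 78.4 and 96.0 FPKM at d3 (log2 change -1.24 ± 0.09). *Wnt10b*, a ligand known to block adipogenesis, was under 0.2 FPKM in all 6 libraries.

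Of the angiogenic factors 3 of 23 tested genes rose and 15 fell (median -0.90). *Vegfa*, which drives vessel growth, had 243, 289 and 293 FPKM at d0 and 80.8, 95.6 and 88.8 FPKM at d3 (log2 change -1.62 ± 0.09), while *Vegfb* had 9.59, 11.7 and 11.5 FPKM at d0 and 31.8, 33.1 and 29.6 FPKM at d3 (log2 change 1.45 ± 0.09) and *Vegfd* had 158, 154 and 159 FPKM at d0 and 382, 382 and 379 FPKM at d3 (log2 change 1.28 ± 0.03). *Fgf2* and *Fgf7* fell, from 282 to 86.3 FPKM and from 78.7 to 16.9 FPKM. In the IGF system 1 of 14 tested genes rose and 7 fell (median -0.37). *Insr* was the gene that rose, *Igf1* had 194, 180.2 and 183 FPKM at d0 and 165, 157 and 171 FPKM at d3 and was not called, and the protease *Pappa*, which frees IGF from its binding proteins, fell from 6.01 to 1.02 FPKM (log2 change -1.80 ± 0.10).

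*H19* itself, the target of the siRNA used elsewhere in the study, had 12.3, 11.3 and 11.6 FPKM at d0 and 8.67, 8.19 and 8.90 FPKM at d3 in these control cells (log2 change -0.41 ± 0.07 (SE), adjusted p = 0.0016), and lost the call without d0 replicate 1 (-0.37) or d3 replicate 2 (-0.38). Of *H19* and its imprinted partners 6 of 8 fell and 1 rose (median -0.59). *Igf2*, which shares its control region with *H19*, had 3.90, 4.13 and 5.42 FPKM at d0 and 1.44, 2.48 and 2.82 FPKM at d3 (log2 change -0.77 ± 0.19). *Meg3* fell from 107 to 55.2 FPKM (log2 change -0.96 ± 0.14) and *Dio3*, which inactivates thyroid hormone, from 194 to 52.0 FPKM (log2 change -1.89 ± 0.09). *Cdkn1c* was the member that rose.

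Several of the genes with the highest FPKM changed. Whether the high FPKM of selenoprotein genes such as *Txnrd1* reflects mRNA abundance was not tested. *Txnrd1*, thioredoxin reductase, had the highest FPKM of all tested genes at d0 with 28510, 31730 and 30750 FPKM and had 5190, 5337 and 5386 FPKM at d3 (log2 change -2.51 ± 0.05). *Selenop*, selenoprotein P, had 5493, 6003 and 5863 FPKM at d0 and 26410, 23440 and 25400 FPKM at d3 (log2 change 2.12 ± 0.06) and was the highest of all tested genes at d3. *Gpx3*, the secreted glutathione peroxidase, had 5358, 5474 and 5925 FPKM at d0 and 15520, 15920 and 16200 FPKM at d3 (log2 change 1.51 ± 0.04). *Car3*, a carbonic anhydrase of fat and muscle, went from 1499 to 3963 FPKM (log2 change 1.40 ± 0.04), and *Fth1*, the ferritin heavy chain, from 2461 to 4698 FPKM (log2 change 0.93 ± 0.04). Of common reference genes *Actb*, β-actin, had 4608, 4472 and 4226 FPKM at d0 and 1787, 1942 and 1837 FPKM at d3 (log2 change -1.26 ± 0.05), and *Hprt* went from 90.9 to 133 FPKM (log2 change 0.55 ± 0.04). *Ppia*, *Rplp0*, *Gapdh* and *Rpl13a* were not called, with changes between 0.10 and 0.30. Among the 14 housekeeping genes 3 rose and 4 fell (median 0.12, and -0.01 after scaling to the same sum).

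To see how much of this course is particular to white cells, the brown siCtrl libraries were fitted on their own and in a model with depot, day and their interaction. In brown cells 8471 of 13001 genes were called (65.2%), 3881 higher and 4590 lower. The interaction passed an adjusted p under 0.05 in 7473 of 14111 genes (53%), 3959 with the more positive change in white and 3514 with the more positive change in brown cells. Both majorities turned under median of ratios scaling, to 4320 higher and 4080 lower in brown cells and to 3371 and 4187 interactions with the more positive change in white and in brown cells. Of the genes tested in both depots, 2497 rose in both, which is 75.53% of those that rose in white and 67.18% of those that rose in brown cells. A further 2414 fell in both, or 81.75% and 54.69%, while 249 rose in white and fell in brown cells and 63 did the reverse. Depot goes with the induction medium and with a code in the sample descriptions, whose meaning the labels do not give, and the 3 cannot be told apart.

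Changes were larger in brown cells over all tested genes too, with a median absolute log2 change of 0.64 against 0.42 in white cells. How far the differences between lists exceed this general one was not tested. For the pathways of energy metabolism the list medians had the same sign in both depots and were larger in brown cells. The median change of the respiratory chain was 1.002 in white and 1.99 in brown cells, and the interaction was more positive in brown for 71 of 72 genes. Fatty acid oxidation had 1.67 against 3.30, with all 22 interactions more positive in brown. De novo lipogenesis had 2.24 against 3.21. *Cidec* had 6.44, 4.68 and 6.39 FPKM at d0 and 3457, 3686 and 3755 FPKM at d3 in brown cells, an interaction of -3.70 (adjusted p = 3.4e-08). *Cpt1b* had 0.530, 0.383 and 1.47 and 148, 148 and 165 FPKM there, and *Cox7a1* had 1.37, 3.93 and 1 and 268, 285 and 316 FPKM (interactions -4.04 and -3.72). In all 3 genes the d3 values of brown cells lay above those of white cells. For *Cidec* the d3 means were 3633 FPKM in brown and 1620 FPKM in white cells. Its d0 means differed as well, at 5.84 FPKM in brown and 38.65 FPKM in white cells.

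For the stromal lists the medians were less negative in white than in brown cells, beside the generally smaller changes in white cells. The matrix list had a median of -0.57 against -1.90, with 31 of 39 interactions more positive in white. The contractile list had -0.89 against -2.72, with 22 of 25. All 12 fibroblast and precursor markers had the more positive change in white, where 3 rose and 6 fell, while in brown cells 11 fell. *Col3a1* had 9045, 9430 and 8810 FPKM at d0 and 2109, 1919 and 1936 FPKM at d3 in brown cells, against no called change in white (interaction 2.30, adjusted p = 3.2e-09). For the complement genes the medians were 0.12 and -1.63, with 15 of 17 interactions more positive in white and none in brown. In white cells 5 of them rose and 4 fell, and *C3* had 697, 769 and 699 FPKM at d0 and 649, 629 and 634 FPKM at d3 and was not called.

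Some genes went opposite ways in the depots. *Sfrp1* rose in white cells and had 294, 302 and 298 FPKM at d0 and 44.4, 42.4 and 49.2 FPKM at d3 in brown ones (interaction 3.90). *Gpx3* had 22460, 22290 and 22130 FPKM at d0 and 4842, 4890 and 4942 FPKM at d3 in brown cells (interaction 3.70), so that the depots changed places. *Agt* rose by 1.58 in white and changed by -0.91 in brown cells (interaction 2.49). *Cebpd* rose by 1.56 and changed by -0.98 (interaction 2.54). *Vegfd* rose by 1.28 and changed by -1.60 (interaction 2.88). *Gpr153*, an orphan receptor (chr4:152274232-152285337, plus strand), was listed at 0, 0 and 0 FPKM at d0 and 7.16, 8.53 and 8.45 FPKM at d3 in white cells and had 49.1, 50.3 and 52.0 and 3.91, 2.34 and 4.71 FPKM in brown ones, where the interaction was 6.67. The white siH19 libraries at d0 were listed at 0, 0 and 45.9 FPKM, and since a 0 was not taken as absence, neither a rise of *Gpr153* in white cells nor its interaction was read from these values. Of the glucocorticoid-responsive genes, 13 of 20 had an interaction that passed, 8 with the more positive change in white and 5 in brown cells. *Tsc22d3* changed by 3.08 in white and 2.76 in brown cells (interaction 0.32), while *Zbtb16*, *Glul* and *Sult1a1* changed by 3.07, 3.19 and 4.91 in white and 3.01, 3.19 and 4.95 in brown cells, with interactions between -0.04 and 0.07 that did not pass.

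**Figure D5:**
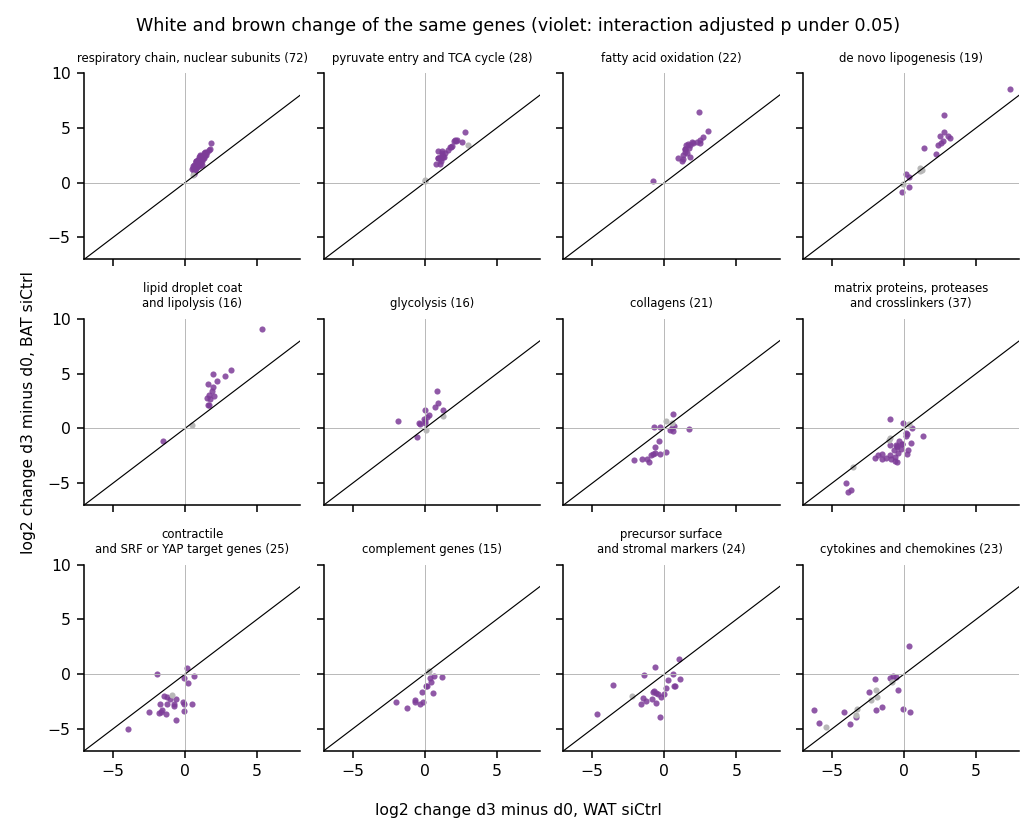
Change from d0 to d3 on the log2(FPKM + 1) scale in white cells (horizontal) and in brown cells (vertical) for the members of 12 lists fitted in both depots, with the line of equality; violet points passed the interaction test at an adjusted p under 0.05. Metabolic genes lie mostly above the line, with 71 of 72 respiratory chain genes more positive in brown, and matrix, contractile and complement genes mostly below it.

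The white siH19 libraries gave a second set of 6 white libraries, taken at the same days and sharing no sample with the first. There 7037 of 13357 genes were called (52.7%). Of the genes tested in both sets, 3098 were called higher in both, which is 89.15% of the siCtrl and 83.21% of the siH19 calls, and 2743 were called lower in both (87.19% and 85.19%), while 3 and 1 were called in the opposite direction. The difference between the 2 courses, fitted as an interaction of day and siRNA, passed in 241 of 13948 genes (1.73%), 203 of them with the more positive change in siH19 and 38 in siCtrl cells. The count was 99 with the replicate block and as low as 127 without 1 library (siH19 d3 replicate 1). A more positive change can come from a lower d0 as well as from a higher d3. *Pnpla2* had a mean of 152.5 FPKM in siCtrl and 80.5 FPKM in siH19 cells at d0, and 1401 and 1424 FPKM at d3. *Fabp4* had 2536 and 1458 FPKM at d0 and 14400 and 15910 FPKM at d3. How many of the 203 genes had this pattern was not counted. The medians of the lists in siCtrl and siH19 cells were 1.002 and 1.204 for the respiratory chain, 1.81 and 2.38 for the lipid droplet and -1.93 and -1.79 for the cytokines.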

How the data were processed

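Poly(A)-selected RNA libraries were sequenced by the authors from 24 cultures, of which 6 (3 WAT siCtrl d0, 3 WAT siCtrl d3) form the comparison, with 6 brown siCtrl and 6 white siH19 libraries beside them. Per the labels and the study's methods, reads were aligned with TopHat2 2.0.10 to GRCm38.p5 and assembled with Cufflinks (version 2.2.1 in the submitters' processing notes, another in the methods), whose FPKM values per Ensembl gene the authors deposited. The labels also name STAR, without a version, and its part in these values was not settled. The table itself names no unit, the labels differ from the methods on read length, pairing and whether the kit kept strand, and no read counts were used here, so that the depth, and with it the precision that counting gives each value, is unknown. A large change in a few abundant genes shifts the FPKM of all others.

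Values were transformed to log2(FPKM + 1), which understates the change of low genes, and fitted with limma 3.58.1 in R 4.3.3 (empirical Bayes with an intensity trend), on the libraries of each comparison alone. The filter was 1 FPKM in 3 libraries. The threshold was 0.05 for p adjusted after Benjamini and Hochberg, joined to a least change of 1.3-fold except for interactions. Sums of marker genes were compared with an exact two-sided permutation test. Gene bounds were those the authors deposited with the values. GENCODE on GRCm38 held 49195 of the 49452 genes, and 44961 genes had identical coordinates there. The fits were tested on simulated data.

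The members, the gene lists and the tests were chosen with earlier results of these data known. The text names the 12 genes with the largest rise and the 12 with the largest fall (with a named symbol, a mean of at least 5 FPKM and no overlap between days), up to 4 called genes each way and the textbook members of each list, the 8 largest interactions each way and the 10 most abundant genes of each day. Some genes that this rule picks are not reported here. Other genes were named after their values were seen, most of them members of the lists. The alternatives tried were other pseudocounts, filters, scalings, fold minimums, a fit without the trend, a replicate block, and leaving out each library.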

Additional observations from a re-analysis of the deposited data

Results flagged for a closer look

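In 16 genes the change from d0 to d3 differed most between white and brown cells, by the interaction of depot and day in limma (adjusted p under 0.05). The values below are the log2 change in white minus that in brown cells, and depot cannot be told apart from the induction medium or the code in the sample descriptions.

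More positive in white cells were the changes of *Gpr153* (6.67, which rests on white d0 values listed at 0 and was not read as a difference), *Clec3b* (4.69), *Ggt5* (4.44), *Folh1* (4.10), *Col28a1* (4.04), *Sfrp1* (3.90), *Cxcl12* (3.90) and *Kng1* (3.76). *Clec3b*, the plasminogen-binding tetranectin, had 7.61, 11.03 and 10.7 FPKM at d0 and 16.4, 14.5 and 13.3 FPKM at d3 in white cells (log2 change 0.56 ± 0.15) and changed by -4.13 in brown cells. *Ggt5*, a γ-glutamyl transferase that acts on leukotriene C, had 12.01, 13.9 and 10.1 FPKM at d0 and 33.1, 30.9 and 30.2 FPKM at d3 (1.33 ± 0.11) against -3.11 in brown cells. *Col28a1*, a collagen, had 26.0, 24.5 and 25.2 FPKM at d0 and 43.5, 42.5 and 44.7 FPKM at d3 (0.76 ± 0.05) against -3.27, and *Kng1*, kininogen, had 3.62, 3.13 and 4.97 FPKM at d0 and 13.2, 13.1 and 11.3 FPKM at d3 (1.48 ± 0.15) against -2.29. All 4 rose in white and fell in brown cells.

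More negative in white cells were the changes of *S100a9* (-4.89), *Olr1* (-4.15), *Fam83a* (-4.09), *S100a8* (-4.06), *Cpt1b* (-4.04), *Dio2* (-3.77), *Cox7a1* (-3.72) and *Cidec* (-3.70). *Olr1*, a receptor of oxidised LDL, had 37.4, 37.1 and 31.8 FPKM at d0 and 3.29, 5.36 and 2.97 FPKM at d3 in white cells (-2.93 ± 0.18) and rose by 1.22 in brown cells. *Fam83a* had 18.9, 22.4 and 20.8 FPKM at d0 and 18.4, 21.9 and 17.5 FPKM at d3 in white cells and was not called there, and it rose by 3.98 in brown cells. For *S100a9* and *S100a8* white d0 replicate 1 was far below replicates 2 and 3. Both interactions failed the threshold without the filter on low values and in most of the fits that left out 1 library.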

How the results depend on the processing

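Of the 6720 calls, 77.2% (a filter of 5 FPKM, which tests fewer genes) to 99.9% were kept under the alternatives tried, all in the same direction, and leaving out 1 library at a time gave 6327 to 6394 calls. A minimum change of 2-fold left 2177 calls in white, 4254 in brown and 2478 in white siH19 cells, by its construction. The same-sum scaling lowered the changes in general, and turned *Col3a1* (-0.022, adjusted p = 0.72) and *Eef1a1* (-0.0028, adjusted p = 0.96), neither called before or after. Without their most abundant member, the d3 to d0 ratios of summed FPKM went from 4.86 to 4.27 for adipocyte (*Fabp4*), 0.836 to 0.611 for precursor (*Col3a1*) and 1.50 to 1.196 for macrophage markers. Same-numbered libraries of d0 and d3 did not deviate together (r = -0.03, -0.01 and -0.02). A small shared deviation could be hidden by the noise, so this does not settle whether the numbers pair the libraries. With the replicate block 6697 genes were called in white, 8448 in brown and 7020 in white siH19 cells, 6934 interactions of depot and day passed, and the interactions of day and siRNA dropped from 241 to 99. That count ran from 127 to 241 when 1 library was left out, lowest without siH19 d3 replicate 1, and the cause was not tested. Named genes kept direction and call in 4099 refits, lost the call in 32 and gained it in 7. Besides those named above, *Klf5* lost it without the filter (adjusted p = 0.064) and without d0 replicate 1 or 2 or d3 replicate 3 (0.05045 to 0.076), *Igf2r* without d0 replicate 3 or d3 replicate 2, and *Notch3* after same-sum scaling. Depth is unknown, and no difference could be read between genes under 1 FPKM.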

Other observations

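The groups in this paragraph were chosen after their values were seen. The 13 mRNAs encoded by the mitochondrial genome rose with the nuclear subunits of the respiratory chain, since 12 rose and none fell (median log2 change 1.3), and their share of the summed FPKM went from 1.31%–1.39% at d0 to 2.94%–3.24% at d3, or 0.59%–0.64% and 1.28%–1.44% without *ATP8*. *ND1* of complex I had 1250, 1332 and 1303 FPKM at d0 and 3806, 3610 and 3298 FPKM at d3 (log2 change 1.46 ± 0.06). *COX3* was not called, at 1.66, 2.52 and 1.43 FPKM at d0 and 1.98, 3.26 and 2.92 FPKM at d3. *ATP8* and *ATP6* overlap on the mitochondrial genome, where reads of the 2 cannot be told apart. *ATP8* was listed between 5406 and 14750 FPKM while *ATP6* was listed between 3.22 and 11.9 FPKM, and neither level can be read on its own. Low beside *COX1* (914 to 2171 FPKM) were also *COX3*, *COX2* (12.55 to 37.0 FPKM), *ND3* (14.1 to 44.6 FPKM) and *ND4L* (5.31 to 38.4 FPKM). Why these genes were listed so low was not tested, and no lack of change was read from *COX3*.

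The selenoprotein genes held 7.82% to 8.31% of the summed FPKM at d0 and 7.97% to 8.16% at d3, with 7 of 21 tested higher, 5 lower and a median of 0.03. Within this sum *Txnrd1* fell and *Selenop* and *Gpx3* rose. Of the 23 genes in the group, 11 ranked among the 100 highest of all listed genes at d0. Whether their FPKM reflect the abundance of the mRNAs was not tested. *Msrb1*, a methionine sulfoxide reductase, had 1316, 1352 and 1383 FPKM at d0 and 2403, 2518 and 2588 FPKM at d3 (log2 change 0.89 ± 0.04), and *Gpx4*, which protects lipids from peroxidation, rose by 0.80 ± 0.10. Among the long noncoding RNAs *Has2os*, antisense to *Has2*, fell with it, at 11.3, 10.1 and 9.32 FPKM at d0 and 0.886, 0.642 and 0.572 FPKM at d3 (log2 change -2.73 ± 0.11). Reads of the 2 can be told apart only if the libraries kept strand, on which the sources differ.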
